A study of Mus musculus with 8 samples.

Results

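Transcripts of 7 genes of cholesterol synthesis and its control were examined in endothelial cells (ECs) from the brains of pups that expressed a constitutively active MAP2K1. The genes are *Srebf2*, *Insig1*, *Hmgcs1*, *Idi1*, *Fdft1*, *Sqle* and *Lss*. They were taken as a fixed list of symbols that was chosen with earlier results of these data known. All 7 were found by Ensembl identifier among the 49315 genes of the count files. None of the 7 is a lipoprotein receptor, so genes of LDL uptake are described from a separate list.

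The 4 mutant pups carried *R26*GT-Map2k1-GFP/+ and *Tg-Cdh5CreER*+/-, and the 4 controls were wild-type pups. The *Rosa* allele drives a *Map2k1* (p.K57N) cDNA and GFP from a CAG promoter once a stop cassette is removed, and the *Cdh5* promoter directs the recombinase to ECs. All pups received tamoxifen on day 1 of life and were killed on day 9, and brain ECs were collected from each pup on beads that bind CD31. Both strains were kept by backcrossing to C57BL/6J. Recombination reached only part of the ECs, and no group expressed wild-type MAP2K1 from *Rosa*, which limits the mutant group as a model. Wild-type pups were picked at random within litters to equal the mutants in number. Each pup gave 1 library, with 24833373 to 34196955 counts on genes. *Map2k1* itself had between 12692 and 18734 normalized counts in the mutant libraries and between 1506 and 1762 in the wild-type libraries, so no library went against its label.

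Cells make cholesterol from acetyl-CoA through mevalonate, isoprenoids, squalene and lanosterol, and take up more of it from lipoproteins. The transcription factor SREBP2, encoded by *Srebf2*, is held in the endoplasmic reticulum by INSIG proteins when sterols are plentiful. When sterols fall it is carried to the Golgi and cleaved, and the freed part raises transcription of the enzymes, of lipoprotein receptors and of *Insig1*. In the brain, cholesterol is made locally because lipoproteins of the blood do not cross the barrier formed by ECs, and astrocytes and myelinating oligodendrocytes make much of it.

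Promoter sequences are shown for 4 genes because SREBP2 acts through a short element that lies near other common promoter elements. RefSeq sequences on GRCm38.p6 were found for 5 of the 7 genes, namely *Srebf2*, *Insig1*, *Hmgcs1*, *Idi1* and *Lss*. All lie on the plus strand, and each sequence below begins 250 bases before the RefSeq start and stops at that start, or before the first GENCODE transcript. Capitals mark a sterol regulatory element, searched as TCACNCCAC or GTGGNGTGA, and the CCAAT box, searched as CCAAT or ATTGG. No overlap between both kinds of match occurred in them.
*Hmgcs1*, chr13:119690101-119690350: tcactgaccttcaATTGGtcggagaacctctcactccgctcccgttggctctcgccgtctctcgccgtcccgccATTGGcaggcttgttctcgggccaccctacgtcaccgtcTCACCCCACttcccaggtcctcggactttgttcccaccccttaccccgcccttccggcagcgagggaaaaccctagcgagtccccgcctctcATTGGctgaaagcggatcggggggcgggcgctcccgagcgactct
*Insig1*, chr5:28071162-28071362: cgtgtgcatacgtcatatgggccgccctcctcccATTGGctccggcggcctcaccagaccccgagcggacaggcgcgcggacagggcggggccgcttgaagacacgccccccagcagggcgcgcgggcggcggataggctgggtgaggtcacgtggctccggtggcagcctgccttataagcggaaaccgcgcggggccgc
*Lss*, chr10:76531355-76531587: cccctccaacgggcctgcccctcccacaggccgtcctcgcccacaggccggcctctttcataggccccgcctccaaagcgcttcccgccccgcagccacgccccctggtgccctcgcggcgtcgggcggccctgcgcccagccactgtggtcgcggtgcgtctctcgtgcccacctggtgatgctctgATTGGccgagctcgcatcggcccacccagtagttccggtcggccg
*Srebf2*, chr15:82147019-82147180: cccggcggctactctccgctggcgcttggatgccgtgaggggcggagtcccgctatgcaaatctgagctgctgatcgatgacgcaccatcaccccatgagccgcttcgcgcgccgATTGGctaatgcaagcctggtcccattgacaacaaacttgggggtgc

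Over the full 250 bases, the sterol regulatory element in these letters was found in 1 of the 5 promoters, that of *Hmgcs1*, from 137 to 129 bases before the start. It was found in 1.05% of the 32841 promoters of the same length in the table. The CCAAT box was present in all 5 promoters and in 33.9% of all promoters, and each of the 8 matches read ATTGG on the strand of the gene. The GC box, searched as GGGCGG or CCGCCC, was also present in all 5, and in 54.5% of the 15029 promoters of genes tested here. In *Idi1*, whose sequence is not shown, the CCAAT boxes and the GC box all lay after the first GENCODE start at 8885501. The bases of its window before that start held no match. These matches are descriptions of the letters, and no binding was measured.

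Of the 7 genes, 6 were lower in mutant ECs at an adjusted p under 0.05 and *Srebf2* did not pass that limit (quasi-likelihood test of edgeR, p adjusted after Benjamini and Hochberg over 16887 genes tested). Of all genes tested 44.4% passed that limit, 22.9% lower and 21.5% higher. Taking the median, the 7 genes stood at a log2 fold change of -0.66 and all genes tested at -0.02. When a log2 fold change beyond 1 in either direction was also required, *Lss* alone remained of the 7, and 14% of all genes tested passed, 8.05% lower and 5.9% higher. All mutant libraries lay below all wild-type libraries for *Insig1*, *Hmgcs1*, *Sqle* and *Lss*, that is, 4 of 7, and none of the 7 was higher without overlap. The groups did not overlap in 42.5% of all genes tested, 21.9% lower and 20.6% higher. In bulk ECs, a lower share of cells of one type and less RNA per cell cannot be told apart. Normalized counts are counts scaled with TMM factors to the average library.

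**Figure D1:**
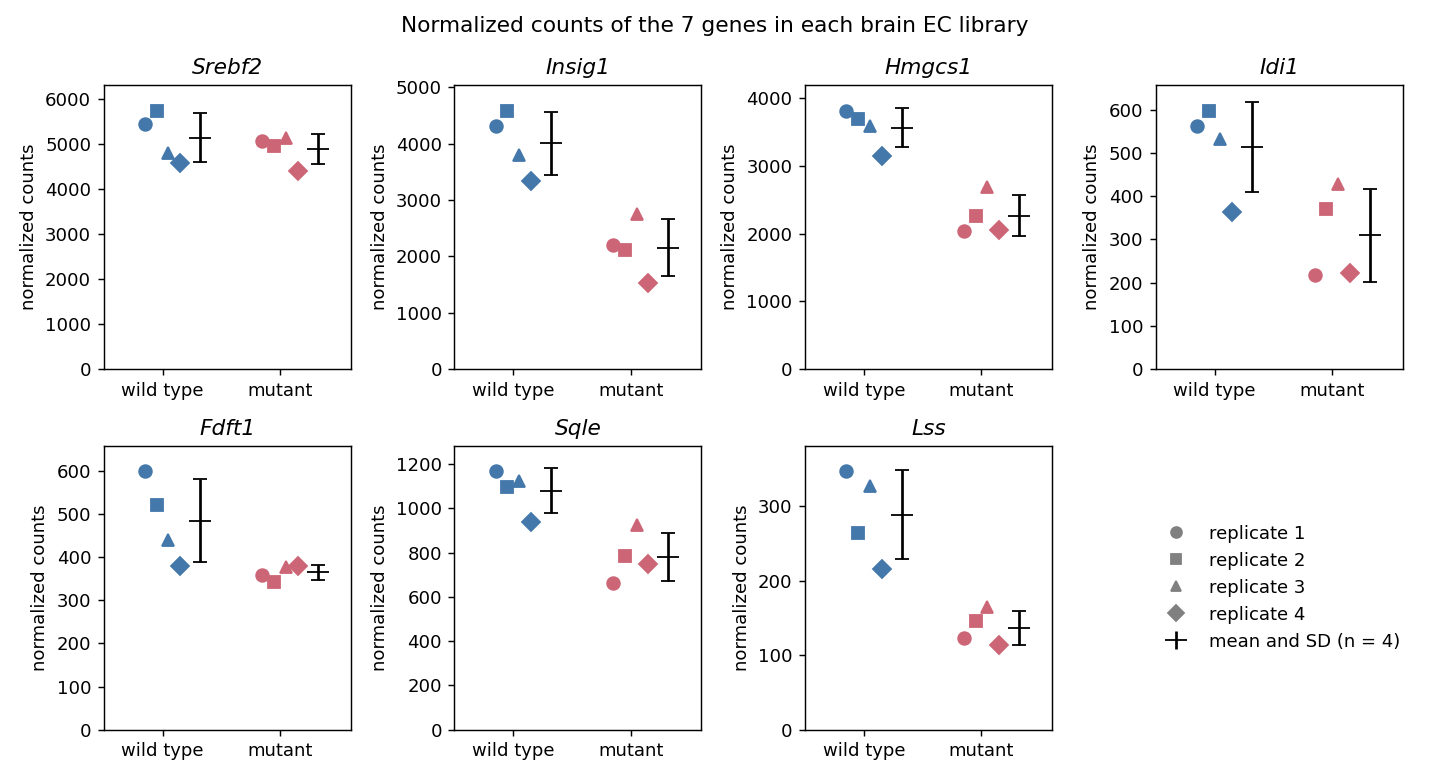
Normalized counts (vertical axes, from 0) of the 7 genes in each wild-type and mutant library, with the mean and SD of 4 libraries beside the points. The groups stand apart for *Insig1*, *Hmgcs1*, *Sqle* and *Lss*, overlap for *Idi1* and *Fdft1*, and share a range for *Srebf2*.

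The transcription factor came first in the order of control. *Srebf2* (ENSMUSG00000022463), on chromosome 15 of GRCm38 from 82147266 to 82205376, had 5458, 5749, 4819 and 4581 normalized counts in wild-type replicates 1 to 4, and 5066, 4957, 5142 and 4403 in mutant replicates 1 to 4. The ranges of both conditions overlapped. The log2 fold change between the conditions was -0.07 (standard error, SE, 0.09, 95% confidence interval -0.27 to 0.12, adjusted p = 0.519, edgeR). The fitted falls of the other 6 genes all lay outside this interval. The 95% confidence intervals of *Idi1*, *Fdft1* and *Sqle* overlapped it, with upper ends at -0.20, -0.10 and -0.22. No difference between genes was tested.

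*Insig1* encodes a protein that retains SREBP2 in the endoplasmic reticulum and is itself a target of SREBP2. The gene (ENSMUSG00000045294), on chromosome 5 from 28071363 to 28078662, had 4309.7, 4584, 3793 and 3334 normalized counts in the wild-type libraries. In the mutant libraries it had 2208, 2114, 2758 and 1534. Every mutant library was below every wild-type library, and mutant replicate 3 was the highest and replicate 4 the lowest of the mutants. The mean fell from 4005 ± 555 (SD, n = 4) to 2154 ± 501 (SD, n = 4), and the fitted difference was -0.90 on the log2 scale (SE 0.16, adjusted p = 0.00134, edgeR).

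Among the enzymes, *Hmgcs1* acts earliest and makes HMG-CoA, the substrate of the step to mevalonate. It lies on chromosome 13 from 119690462 to 119708086 (ENSMUSG00000093930). The wild-type libraries had 3814, 3689.9, 3593 and 3152 normalized counts and the mutant libraries 2044, 2260.1, 2694 and 2049.9. The groups stood apart, with less spread within each than for *Insig1*. The mutant mean of 2262 ± 305 (SD, n = 4) was 63.5% of wild type in the fit, with a log2 fold change of -0.66 (SE 0.10, adjusted p = 4.99e-04, edgeR).

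*Idi1* encodes the isomerase that converts the first isoprenoid unit to its reactive form, and lies on chromosome 13 from 8885501 to 8892451 (ENSMUSG00000058258). It had 562, 598, 533 and 363 normalized counts in the wild-type libraries and 217, 370.4, 429 and 221 in the mutant libraries. Wild-type replicate 4 lay below mutant replicates 2 and 3, so the groups overlapped. The log2 fold change was -0.73 with an SE of 0.24, the largest error of the 7 genes (adjusted p = 0.0292, edgeR). Without mutant replicate 1 or 4, or wild type replicate 1, 2 or 3, the adjusted p of *Idi1* rose to between 0.054 and 0.0857 in edgeR, while the log2 fold change stayed between -0.71 and -0.58.

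*Fdft1* encodes squalene synthase, the first enzyme committed to sterols, and lies on the minus strand of chromosome 14 from 63145153 to 63177793 (ENSMUSG00000021273). The wild-type libraries had 599, 521, 441 and 379 normalized counts and the mutant libraries 358, 343, 378 and 380.4. Only wild-type replicate 4 fell within the range of the mutants, which lay close together. The log2 fold change of -0.41 was the smallest of the 6 genes that passed (SE 0.14, adjusted p = 0.0333, edgeR). It did not pass without any 1 of mutant replicates 1 to 4 or wild type replicates 1 and 2 (adjusted p between 0.0536 and 0.121 in edgeR), and shrank to -0.27 without wild type replicate 1. Its exons share 767 bases with *Ctsb* on the opposite strand, which averaged 14267 normalized counts, and the use of strand in counting was not given in the sources used here, so the level of *Fdft1* is uncertain.

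*Sqle* encodes squalene epoxidase, a slow step of the sterol branch, and lies on chromosome 15 from 59315077 to 59331192 (ENSMUSG00000022351). It had 1166, 1095, 1121 and 936 normalized counts in wild-type and 662, 783, 925 and 749 in mutant libraries. The highest mutant library, replicate 3, came within a small gap of the lowest wild-type library, replicate 4. The log2 fold change was -0.47 (SE 0.11, adjusted p = 0.00619, edgeR).

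*Lss* encodes lanosterol synthase, which closes the sterol ring, and lies on chromosome 10 from 76531588 to 76557138 (ENSMUSG00000033105). The wild-type libraries had 346, 263, 327 and 216 normalized counts and the mutant libraries 123, 146, 164 and 114. The groups stood apart although *Lss* had the fewest reads of the 7 genes, with 97 to 378 counts per library before scaling. Its log2 fold change was -1.08 (SE 0.18, adjusted p = 9.20e-04, edgeR), the largest fall of the 7, and its 95% confidence interval from -1.48 to -0.67 contained the fold changes of *Insig1* and *Idi1*. The fall was just under the limit of 1 without mutant replicate 4 (-0.97) or wild type replicate 1 (-0.96).

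Levels between genes were compared per length, as RPKM computed on TMM-scaled library sizes. In wild-type ECs *Insig1* was highest at an RPKM of 43.6 ± 6.04 (SD, n = 4), followed by *Hmgcs1* at 37.1 ± 3.00 and *Srebf2* at 34.8 ± 3.67, and the ranges of neighbours in this order overlapped. *Sqle* at 6.56 ± 0.607, *Fdft1* at 5.71 ± 1.13 and *Idi1* at 4.94 ± 1.00 formed a lower set whose neighbours also overlapped. *Lss* was lowest at 0.900 ± 0.186, on an exon length of 10787 bases that joins all its transcripts in the count files. In mutant ECs *Srebf2* was highest at an RPKM of 33.0 ± 2.26 (SD, n = 4), above *Hmgcs1* at 23.6 ± 3.18 and *Insig1* at 23.5 ± 5.46 in every library. The mutant ranges of *Srebf2* (29.7 to 34.7) and *Insig1* (16.7 to 30.0) nevertheless overlapped. By the same count per library, *Insig1* was above *Hmgcs1* in every wild-type library. *Hmgcs1* and *Insig1* could not be ordered in the mutants, and the order from *Sqle* to *Lss* was the same as in wild type.

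**Figure D2:**
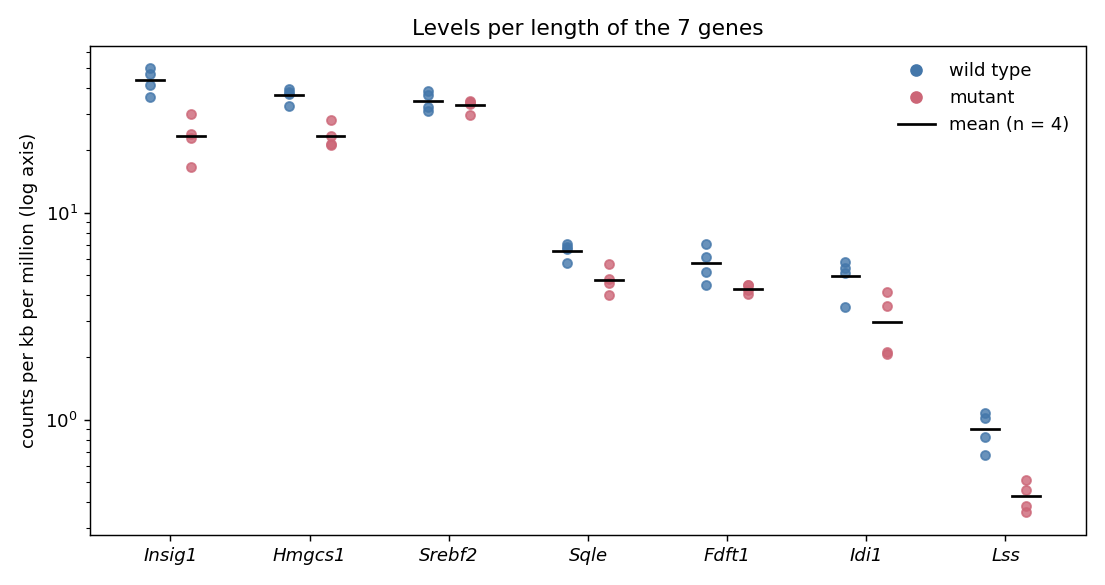
RPKM on TMM-scaled library sizes (log axis) of the 7 genes in 4 wild-type and 4 mutant libraries, in the order of their wild-type means, with black bars at the mean. The mean of *Srebf2* lies below those of *Insig1* and *Hmgcs1* in wild type (34.8 against 43.6 and 37.1), where the ranges overlap. In mutant ECs it lies above both in every library (33.0 against 23.5 and 23.6), although its range overlaps that of *Insig1*.

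The library labels carry 3 prefixes that each hold both conditions, and what the prefixes stand for was not given in the sources used here. Within the prefix of replicates 1 and 2, all 7 genes were lower in mutant ECs, with differences in log2 CPM from -1.16 for *Lss* to -0.16 for *Srebf2*. Within the prefix of replicate 3, 6 of 7 were lower, the median difference was smaller at -0.31, and *Srebf2* was higher by 0.09. Within the prefix of replicate 4, 6 of 7 were lower with a median of -0.62, and *Fdft1* was level at 0.01. The last 2 prefixes hold 1 library per condition and give no test.

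The 7 genes also varied together among pups of the same condition. After the condition mean was removed from log2 CPM, each gene was compared over the 8 libraries with the mean of the other 6 genes. Pearson's r was 0.94 for *Hmgcs1*, 0.88 for *Idi1*, 0.83 for *Sqle*, 0.81 for *Lss*, 0.80 for *Insig1*, 0.71 for *Srebf2* and 0.58 for *Fdft1*. These values describe points that share library and depth. All 7 genes lay above their mean in mutant replicate 3 and below it in wild-type replicate 4. *Idi1* spanned the widest range, from -0.47 in wild-type replicate 4 to 0.53 in mutant replicate 3.

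**Figure D3:**
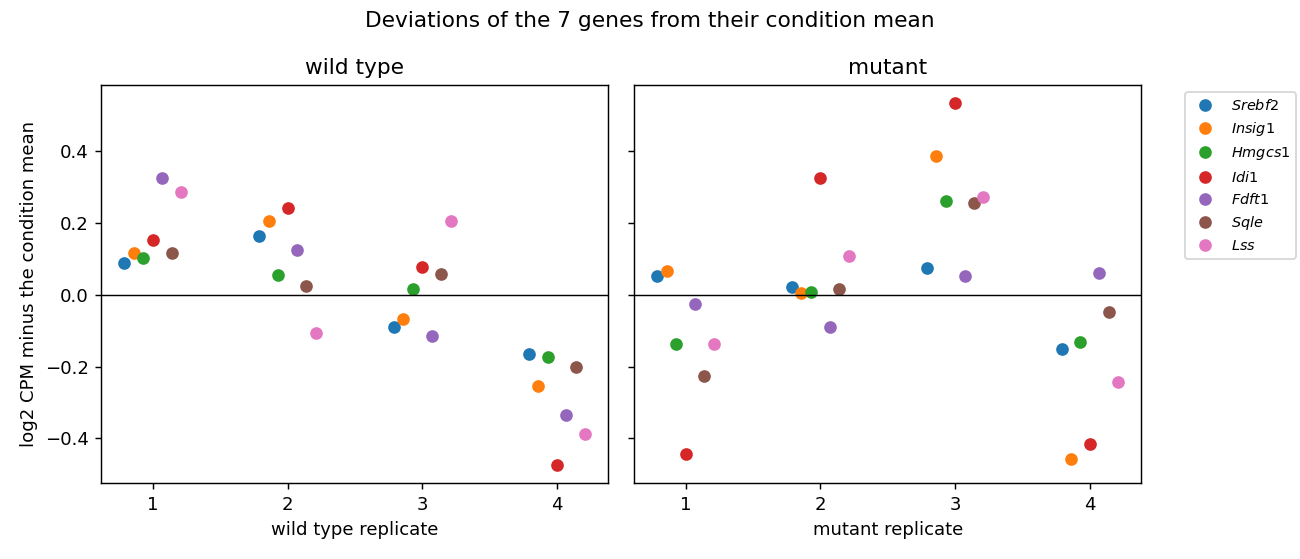
Deviation of log2 CPM from the condition mean (vertical axis) for each of the 7 genes in wild-type (left) and mutant (right) libraries, by replicate number. All 7 points lie above 0 in mutant replicate 3 and below 0 in wild-type replicate 4, with *Idi1* at 0.53 and -0.47.

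Among 11393 other genes that averaged 100 or more normalized counts, the 5 whose deviations were most like the mean of the 7 were *Hdac5* (r = 0.99), *Slc16a13* (0.97), ENSMUSG00000063897 (0.96, no symbol matched), *Fads2* (0.96) and *Ier5l* (0.96), over 8 libraries. *Fads2* encodes a fatty acid desaturase and is the one of these on a lipid list. The likeness rests on few libraries, since only 18 of the 100 genes of highest r were retained without wild type replicate 4 and 31 without mutant replicate 3. The other 15 enzymes of cholesterol synthesis had a median r of 0.66 with the 7 genes, where the median over the 11393 genes was 0.03. Markers of some other cells were also high on this measure. The 9 pericyte and smooth muscle markers that were abundant enough had r from 0.14 to 0.91 with a median of 0.79, the 6 red blood cell markers had a median of 0.74, and the 7 astrocyte markers ranged from -0.51 to 0.95 with a median of 0.62. Oligodendrocyte, microglial and neuronal markers had lower medians, at 0.38, 0.24 and 0.23. The 10 endothelial markers had a median of -0.27.

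The other enzymes of the pathway were lower as well. Of 15 further enzymes listed, 12 were lower at an adjusted p under 0.05, none was higher and 3 did not pass, with a median log2 fold change of -0.60 (edgeR). The share of lower genes over all genes tested was 22.9%. *Mvk*, the kinase that phosphorylates mevalonate, fell from 710.2 ± 104 to 333 ± 46.0 normalized counts (SD, n = 4 each), with a log2 fold change of -1.09 (SE 0.14, adjusted p = 1.58e-04, edgeR). *Cyp51*, which removes a methyl group from lanosterol, had a log2 fold change of -1.02 (SE 0.17, adjusted p = 8.90e-04, edgeR). In both, every mutant library was below every wild-type library. The fall of *Mvk* was under the limit of 1 without mutant replicate 4, and that of *Cyp51* without mutant replicate 1 or 4 or wild type replicate 1 or 3, and just under it with DESeq2 or its size factors in edgeR (-0.998 and -0.999).

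Of 10 genes that handle SREBP, 1 was lower, 3 were higher and 6 did not pass, where 22.9% of all genes tested were lower and 21.5% higher, with a median log2 fold change of 0.06. The lower one was *Mbtps1*, the protease of the first SREBP cleavage, at -0.26 (adjusted p = 0.0196, edgeR), named after its value was seen. The count of lower genes was 0 without mutant replicate 3 or 4 or wild type replicate 1 or 2, and 2 without wild type replicate 3. *Rnf145* and *Rnf139* encode ubiquitin ligases of the endoplasmic reticulum and rose by 0.97 (SE 0.09, adjusted p = 3.63e-05) and 0.38 (SE 0.10, adjusted p = 0.00833) on the log2 scale (edgeR). *Rnf145* had 1633 to 1831 normalized counts in wild-type and 2994 to 3885 in mutant libraries.

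Of 13 genes of LDL uptake and lysosomal cholesterol release, 5 were lower, 3 were higher and 5 did not pass. Over all genes tested, 22.9% were lower and 21.5% higher. *Vldlr*, a receptor for triglyceride-rich lipoproteins, rose from 135 ± 36.7 to 609 ± 189.6 normalized counts (SD, n = 4 each), a log2 fold change of 2.17 (SE 0.25, adjusted p = 8.82e-05, edgeR). *Lrp8*, a receptor of the same family, had 30890.5 to 33430.3 normalized counts in wild-type libraries and 11102 to 21089 in mutant libraries, with a log2 fold change of -0.97 (SE 0.16, adjusted p = 9.69e-04, edgeR). *Scarb1*, which exchanges cholesterol with HDL, fell by 0.68 on the log2 scale (SE 0.11, adjusted p = 7.66e-04, edgeR). The list therefore held members that moved in opposite directions, and its median log2 fold change was 0.00.

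In the list of cholesterol efflux, storage and LXR, 2 of 7 genes were lower, 2 were higher and 3 did not pass. The shares over all genes tested were 22.9% lower and 21.5% higher, so these counts are near them. *Ch25h*, which makes the oxysterol 25-hydroxycholesterol, rose from 66.2 ± 9.91 to 348 ± 61.8 normalized counts (SD, n = 4 each), a log2 fold change of 2.39 (SE 0.17, adjusted p = 6.66e-06, edgeR). *Soat1*, which esterifies cholesterol for storage, rose by 1.58 on the log2 scale (SE 0.15, adjusted p = 2.71e-05, edgeR). *Abca1*, the exporter of cholesterol to apolipoproteins, fell from 27600.1 ± 1432 to 16858 ± 1896 normalized counts (SD, n = 4 each), with a log2 fold change of -0.71 (SE 0.09, adjusted p = 1.68e-04, edgeR).

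Fatty acid genes were mixed, with 5 of 10 lower, 1 higher and 4 that did not pass. Of all genes tested, 22.9% were lower and 21.5% higher. The count of lower genes was 3 without mutant replicate 1 or 4 or wild type replicate 1 or 2. *Scd1* and *Scd2*, desaturases that make monounsaturated fatty acids, had log2 fold changes of -1.58 (SE 0.19, adjusted p = 1.37e-04) and -0.86 (0.13, 5.37e-04), and *Me1*, which supplies NADPH, rose by 0.99 (0.15, 4.42e-04) in edgeR.

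**Figure D4:**
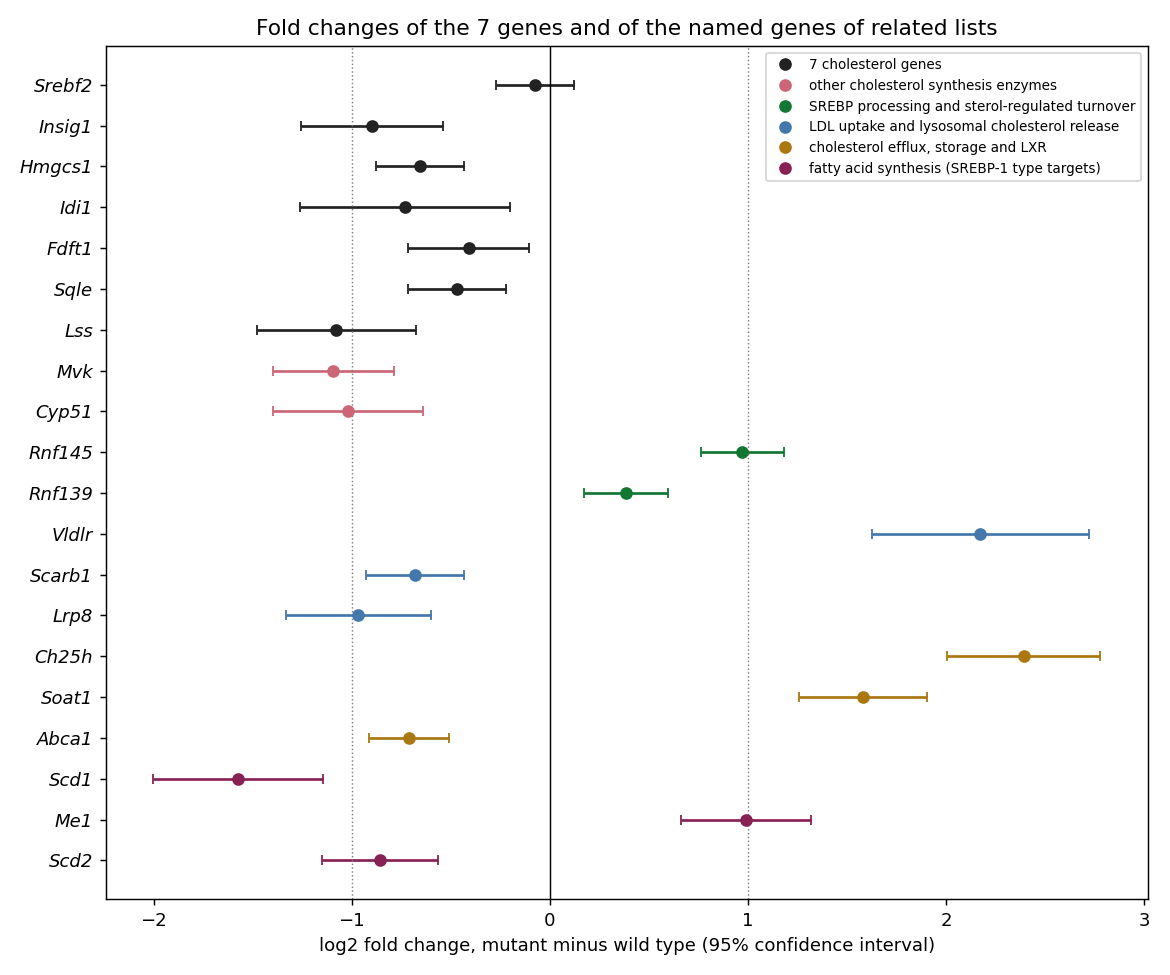
Log2 fold change, mutant minus wild type (horizontal axis), with its 95% confidence interval for the 7 genes (black) and the named genes of 5 related lists (colours), with dotted lines at an absolute log2 fold change of 1. The intervals of 6 of the 7 genes lie below 0 and that of *Srebf2* spans 0, while *Vldlr* (2.17) and *Ch25h* (2.39) lie far to the right.

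Markers of other brain cells moved with the condition and are given beside these results. Of 10 endothelial markers, *Cdh5* (1.11), *Emcn* (0.82) and *Pecam1* (0.53) had a higher and *Kdr* (-0.59), *Cldn5* (-0.47) and *Tek* (-0.44) a lower log2 level in mutant ECs at an adjusted p under 0.05 in edgeR, and 4 did not pass. The sum of the 10 was between 343923 and 416685 normalized counts in wild-type and between 365498 and 443515 in mutant libraries. All 12 oligodendrocyte markers were lower in mutant libraries, and their sum was between 4804 and 11569.7 in wild-type and between 1914 and 3192 in mutant libraries. Of 10 astrocyte markers, *Gja1* was higher, *Sox9*, *Aldh1l1* and *S100b* were lower and 6 did not pass. Their sum averaged 14304 normalized counts in wild-type and 21099 in mutant libraries, mostly from *Gja1*. Without *Gja1* the sum was between 2614 and 3375 in wild-type and between 1122 and 2554 in mutant libraries. Without *Sox9* as well, the other 8 markers overlapped, with 1193 to 1897 in wild-type and 874 to 2006 in mutant libraries. In both of these smaller sums, mutant replicate 3 was the highest mutant and wild-type replicate 4 the lowest wild type, as for the summed level of the 7 genes. The same was seen in the pericyte and smooth muscle sum and in the microglial sum, so it was not particular to astrocyte markers. The endothelial, oligodendrocyte, neuronal and red blood cell sums did not show both extremes. The wild-type mean exceeded the mutant mean by 1852 normalized counts for *Insig1* and by 1300.4 for *Hmgcs1*. For marker sums the excess was 1507 for the 9 astrocyte markers, 389.9 for the 8 and 6499 for the 12 oligodendrocyte markers. It was 1025 for the neuronal and 14856.5 for the red blood cell markers. The endothelial, pericyte and smooth muscle, and microglial sums had a higher mean in mutant libraries. These counts are not scaled for length and do not measure how much RNA of the 7 genes other cells carry. Of 10 neuronal markers 6 were lower and 1 higher, and all 7 red blood cell markers tested were lower. Among pericyte and smooth muscle markers 3 of 10 were higher, and none of 10 microglial markers passed. The shares beside all these marker counts are 22.9% lower and 21.5% higher over all genes tested. No marker was at 0 in any library, and the part of other cells in the changes of the 7 genes was not tested.

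**Figure D5:**
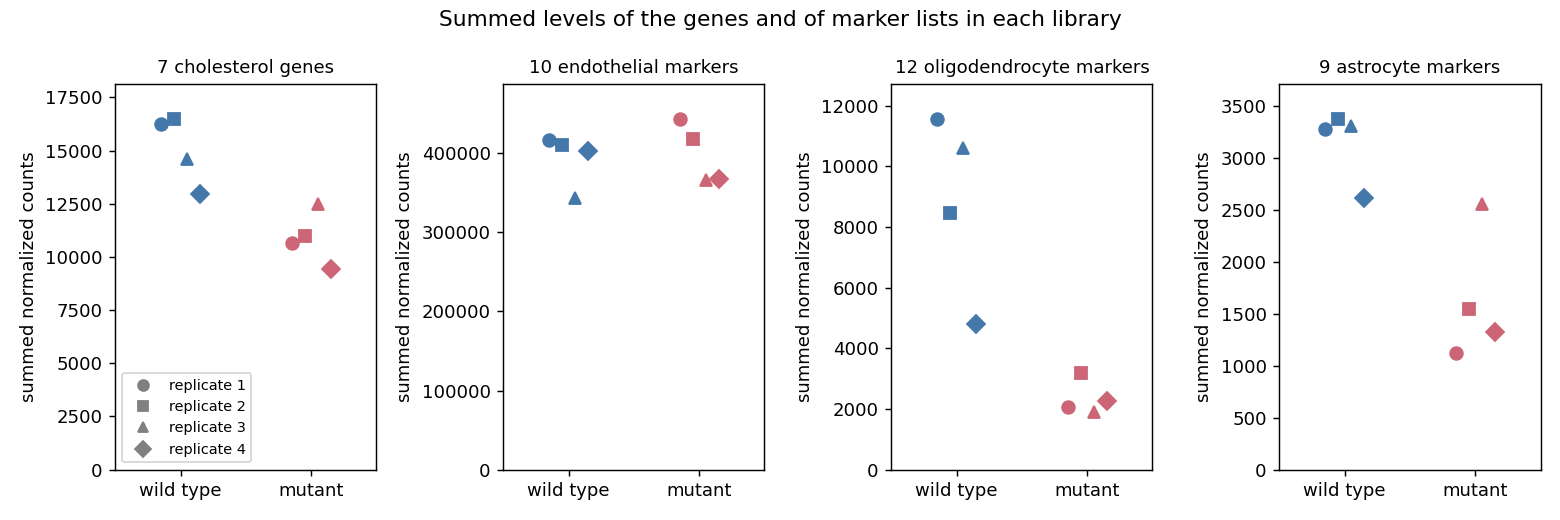
Summed normalized counts (vertical axes, from 0) of the 7 cholesterol genes and of endothelial, oligodendrocyte and astrocyte marker lists (astrocytes without *Gja1*) in each library, with a symbol for each replicate number. The cholesterol, oligodendrocyte and astrocyte sums are lower in every mutant library than in every wild-type library, while the endothelial sums overlap. The astrocyte groups overlap once *Sox9* is also left out.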

How the data were processed

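RNA sequencing libraries of brain ECs from 4 mutant and 4 wild-type pups were analysed. The authors used Trimmomatic for trimming and STAR for mapping to GRCm38, and deposited whole-number counts per gene. The program and annotation used for counting, the strand setting and multi-mapping reads were not given in the sources used here. A signal table of 16889 genes, also deposited, holds counts divided by the DESeq2 size factors, and 100% of its values returned whole reads (tolerance 0.01 reads). It was not used for tests.

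Symbols came from a table of mouse gene names (48970 of 49315 identifiers matched). Counts were fitted with edgeR 4.0.16 in R 4.3.3 (TMM, filterByExpr with a minimum count of 10, glmQLFit, glmQLFTest, no covariate), with p adjusted over 16887 genes. The limits were an adjusted p of 0.05 and an absolute log2 fold change of 1. Log2 CPM had a prior count of 2. Python 3.11.15 was used for summaries.

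The 7 genes and the lists were chosen with earlier results of these data known. Named genes were the 7, those of each lipid list past both limits or, where fewer than 3, the 3 of smallest p, and the 5 of highest within-condition r. Some genes that this rule names are not reported here.

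Libraries of 1 condition differed by more than sampling noise (chi-square per degree of freedom 7.30 to 41.6) and were kept as separate replicates. In simulated data of 16887 genes, 40 of 67 genes changed 1.5-fold, 62 of 67 changed 2-fold and 66 of 66 changed 4-fold were called, with 15 unchanged genes. The precision of the 7 genes is limited by the spread between pups.

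Alternatives were DESeq2 1.42.0, other normalizations and filters, replicate number or label prefix as a block, and each library left out. The fit of replicates 1 and 2 alone was chosen after seeing the data.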

Additional observations from a re-analysis of the deposited data

Results flagged for a closer look

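*Soat1* had 1476 normalized counts in mutant replicate 4, while the other 3 mutant libraries had 1183, 1195 and 1226. The gap to the nearest library was 0.854 of the range of the group, above Dixon's 95% critical value for 4 samples. It was the only value past this limit among 44 groups of 4 libraries examined, where chance gives about 1 in 20, and none of the 7 cholesterol genes was past it.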

How the results depend on the processing

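*Hmgcs1*, *Sqle*, *Lss* and *Insig1* were lower at an adjusted p under 0.05 under all 17 alternatives, *Idi1* under 12 and *Fdft1* under 11, and *Srebf2* under none. The number of the 7 genes past that limit was between 4 and 6 with a library left out, and 6 with the replicate number as a block. The number past the fold limit as well was 1, between 0 (without mutant replicate 4 or wild type replicate 1) and 2 (without mutant replicate 3), and 2 with replicates 1 and 2 alone. Of the other enzymes, 1 was higher with replicates 1 and 2 alone, and between 0 and 1 with a library left out, 1 without mutant replicate 4. Of the genes that handle SREBP, 2 rather than 1 were lower with upper quartile or total count normalization, with a mean of at least 100 counts, with the replicate or the label prefix block and with replicates 1 and 2 alone, and between 0 and 2 with a library left out. Lower fatty acid genes numbered between 3 and 5 with a library left out. Of the 100 genes most like the 7, between 18 and 81 were retained with a library left out. The cause was not tested. The replicate block changed no call of the 7 genes. Deviations of same-numbered libraries correlated with r of 0.20, 0.21, 0.29 and 0.02, and not every library correlated best with its own number, so the numbers were not taken as pairs. With the replicate block 11 rather than 12 other enzymes were lower, and between 10 and 13 with a library left out. Read counts per library were lowest for *Lss*, at 97 to 378.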
